A study of Mus musculus with 17 samples.

Results

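The Hbb-b1 and Hbb-b2 viewpoints sit at the promoters of the adult β-globin genes on mouse chromosome 7, and they are 2 of the 9 single viewpoints at distinct positions from which chromatin contacts were captured. All interaction counts listed for either viewpoint on chromosome 7, outside the zone around it, were taken. The Hbb-b1 viewpoint is the DpnII fragment chr7:110961967-110962817 (mm9, 851 bp), and the Hbb-b2 viewpoint is chr7:110975976-110976456 (mm9, 481 bp). In the mm9 gene annotation the names are exchanged: the Hbb-b1 viewpoint overlaps 544 bp of the gene annotated as Hbb-b2, and the Hbb-b2 viewpoint lies inside the gene annotated as Hbb-b1. Viewpoint names are used here as deposited. RefSeq calls the gene under the Hbb-b1 viewpoint Hbb-bt and the gene under the Hbb-b2 viewpoint Hbb-bs.

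In Capture-C, chromatin is cut with DpnII, ligated, and enriched for ligation products of chosen fragments, so a count is a unique contact between a viewpoint and another fragment. The 17 libraries fell into 5 groups. Ter119+ erythroid cells came from the spleens of adult mice given phenylhydrazine, a drug that destroys red cells and fills the spleen with erythroid precursors. They were wild type (WT, n = 3) or QuadDel (n = 3), which lack 4 CTCF sites of the α-globin locus on chromosome 11, named θ1, θ2, HS+44 and HS+48, on both alleles. By the study's methods, QuadDel also lacks the stretch of about 4 kb between HS+44 and HS+48. CD71+ erythroid cells were grown from embryonic stem cells through embryoid bodies. All CD71+ cells carried an Hba-a1-YFP reporter on the only intact α-globin allele, because that locus is deleted on the other chromosome. They had no insert (WT αYFP, n = 3), an inserted α-globin promoter (αPonly, n = 4) or an inserted promoter and gene (αP+G, n = 4). The study's methods describe such CD71+ cells as resembling primitive erythroblasts, which form in the embryo before definitive erythropoiesis. None of these edits lies on chromosome 7, so the β-globin viewpoints served as viewpoints at an unedited locus.

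The β-globin genes lie in a cluster, with the embryonic genes Hbb-bh1 and Hbb-y towards the locus control region (LCR) and the adult genes farther away. The LCR is a group of erythroid enhancers that is brought close to whichever β-globin genes are active, and it is known for contacting embryonic genes in primitive cells and adult genes in definitive cells. On either side of the cluster lie olfactory receptor genes, whose expression was not measured here.

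The 250 bases before the start of each adult gene are shown because they are the promoters at or beside the viewpoints, with ACACCC (the core of the box bound by KLF1), CCAAT and TATAA in capitals where they occur on either strand. The sequences are those of RefSeq (GRCm38.p6) and read 5′ to 3′ on the minus strand, and the same bases were found in mm9 at chr7:110962438-110962687 for Hbb-bt and chr7:110976443-110976692 for Hbb-bs. They are reference bases, and whether the cells of each group carry them was not checked.
Hbb-bt: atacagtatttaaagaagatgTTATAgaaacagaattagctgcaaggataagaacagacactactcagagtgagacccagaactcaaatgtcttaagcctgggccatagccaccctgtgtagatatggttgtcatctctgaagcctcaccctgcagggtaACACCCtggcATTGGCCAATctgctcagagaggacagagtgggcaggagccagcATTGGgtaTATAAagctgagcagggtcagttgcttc
Hbb-bs: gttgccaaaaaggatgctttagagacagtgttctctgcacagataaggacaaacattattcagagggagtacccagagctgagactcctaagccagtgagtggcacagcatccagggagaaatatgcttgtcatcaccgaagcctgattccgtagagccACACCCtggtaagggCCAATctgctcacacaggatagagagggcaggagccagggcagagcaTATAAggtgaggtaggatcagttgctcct

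Both promoters hold ACACCC, at 90 bases before the start in Hbb-bt and at 91 in Hbb-bs. CCAAT occurs 3 times in Hbb-bt and once in Hbb-bs. Of 32851 RefSeq promoters of this length plus the 50 bases after the start, 13.9% hold ACACCC, 33.8% hold CCAAT and 22.8% hold TATAA. The aligned promoters were identical at 178 of 257 positions (69.3%), and all 250 bases of Hbb-bt but only 14 of Hbb-bs lie inside the viewpoint fragment.

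The fragment of the LCR window, defined below, with the highest contact level from both viewpoints in WT Ter119+ cells is shown next. It is chr7:111009552-111009747 (mm9, plus strand, 196 bp), it lies 7798 bp beyond the start of Hbb-y, and capitals mark TGAGTCA, here read on the other strand as TGACTCA. This is the core recognised by the erythroid factor NF-E2 and by AP-1.
LCR fragment: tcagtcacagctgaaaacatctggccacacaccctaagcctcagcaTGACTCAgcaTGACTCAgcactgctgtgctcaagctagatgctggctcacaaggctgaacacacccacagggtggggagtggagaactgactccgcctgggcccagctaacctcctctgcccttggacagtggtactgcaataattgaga

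The 2 matches begin at bases 47 and 57 of the fragment. Of 425 fragments between 110.9 and 111.1 Mb, 33 (7.76%) held TGAGTCA on either strand and 3 held it at least 2 times. In the LCR window 8 of 49 fragments (16.3%) held it, and this fragment was the 1 that held it more often than once. Among 723797 windows of 196 bp on chromosome 7, 3.08% held the motif and 0.0644% held at least 2 copies.

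Depth was moderate and differed between viewpoints. Outside the zone, the chromosome 7 count per library was 10461 to 15983 for Hbb-b1 and 8457 to 12250 for Hbb-b2 in Ter119+ cells, and 8085 to 23085 and 12338 to 32129 in CD71+ cells. The 95% Wilson interval of an LCR share was at most 0.809 points wide on either side with the deposited zone. With both viewpoints' zones left out it was at most 0.997 points. These intervals cover counting error only. The deposited zone is the viewpoint fragment in Ter119+ libraries and reaches 1000 bp farther on each side in CD71+ libraries. The adult genes also share sequence: the fragments chr7:110961586-110961968 and chr7:110975595-110975977 (mm9, 383 bp) are identical, and from Hbb-b1 the copy beside Hbb-b2 carried 8829 ± 961 (SD, n = 3) of 100,000 contacts in WT, a level in which the 2 copies cannot be told apart. Levels are therefore given with both viewpoints' zones, each with 1000 bp on either side, left out for both viewpoints. Exceptions are the region and fragment values set beside tests between groups, the 1 Mb bins and the lone-library check. These use the deposited zone unless said otherwise.

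The LCR window is the stretch of 24 kb from 1000 to 25000 bp upstream of the start of Hbb-y. It was set by distance and not from mapped sites of the LCR, and values given for the LCR are those of this window. With both zones left out, the LCR window took the largest share of the contacts among the 6 regions of the locus from both viewpoints in Ter119+ cells. With the deposited zone the adult genes took more, at 36.2% from Hbb-b1 and 27.4% from Hbb-b2 against 9.69% and 15.6% for the LCR window. With both zones left out, the LCR took from Hbb-b1 12.5%, 13.3% and 12.2% of chromosome 7 contacts in the 3 WT libraries (12.7% ± 0.55, SD, n = 3) and 14.2%, 14.5% and 15.0% in QuadDel (14.6% ± 0.37, SD, n = 3). From Hbb-b2 it took 19.7%, 18.2% and 18.5% in WT (18.8% ± 0.79, SD, n = 3) and 20.2%, 20.0% and 22.2% in QuadDel (20.8% ± 1.19, SD, n = 3). In CD71+ cells the LCR share was under 5% from both viewpoints in all 11 libraries, and the Hbb-b1 means were 4.35% ± 0.33 for WT αYFP, 4.27% ± 0.38 for αPonly and 4.22% ± 0.25 for αP+G. From Hbb-b2 the means were 4.15% ± 0.44, 3.98% ± 0.36 and 4.06% ± 0.31 in the same order.

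**Figure D1:**
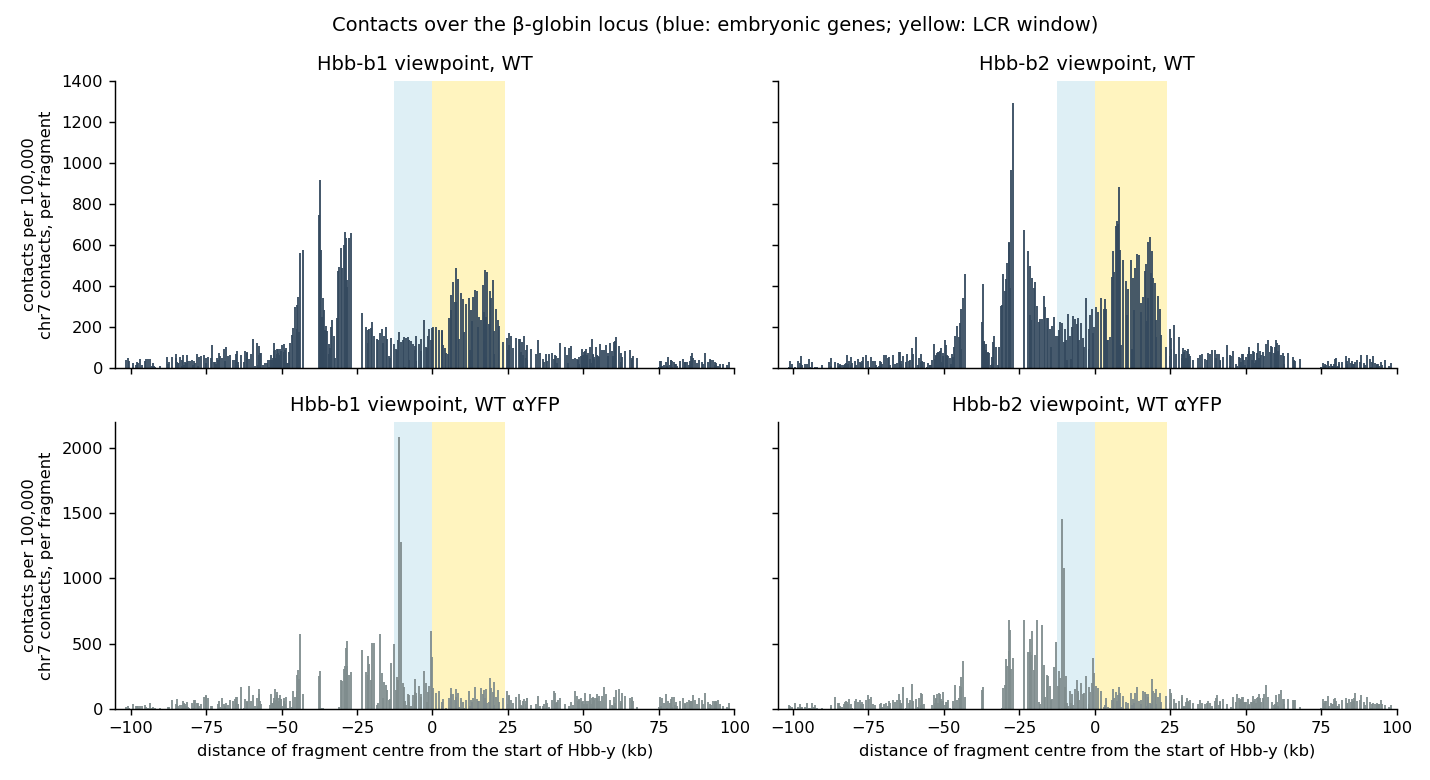
Contacts per 100,000 chromosome 7 contacts (y axis, mean of 3 libraries) for each DpnII fragment against its distance from the start of Hbb-y (x axis, kb), for both viewpoints in WT (top) and WT αYFP (bottom), with the embryonic genes shaded blue, the LCR window yellow and both viewpoints' zones left empty. The y axes differ between rows. The LCR window stands above its surroundings in WT, reaching 883 from Hbb-b2, whereas the highest bars in WT αYFP are at Hbb-bh1, reaching 2088 from Hbb-b1.

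Per kb, the LCR window held more contacts than the embryonic genes in Ter119+ cells and fewer in CD71+ cells. From Hbb-b1 the ratio of the LCR window to the embryonic genes was 1.92 ± 0.068 for WT, 2.04 ± 0.20 for QuadDel, 0.316 ± 0.055 for WT αYFP, 0.296 ± 0.066 for αPonly and 0.310 ± 0.037 for αP+G (mean ± SD over libraries). From Hbb-b2 the ratio was 1.95 ± 0.11 and 1.82 ± 0.21 in WT and QuadDel and between 0.320 and 0.348 in the CD71+ groups. All 6 Ter119+ libraries were above 1 and all 11 CD71+ libraries below it from both viewpoints. Cell type, mouse strain and capture all differ between these sets and cannot be told apart, so no test was made between them.

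Set against the upstream flank, which holds olfactory receptor genes, the LCR window also stood out less in CD71+ cells. Its contacts per kb over those of the upstream flank were 4.59 ± 0.34 in WT and 6.58 ± 0.079 in QuadDel from Hbb-b1, 7.79 ± 1.28 and 10.7 ± 0.55 from Hbb-b2 (SD, n = 3), and 1.51 to 1.63 across the CD71+ groups and viewpoints. In CD71+ cells the LCR was thus above the flank, but by less than in Ter119+ cells.

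**Figure D2:**
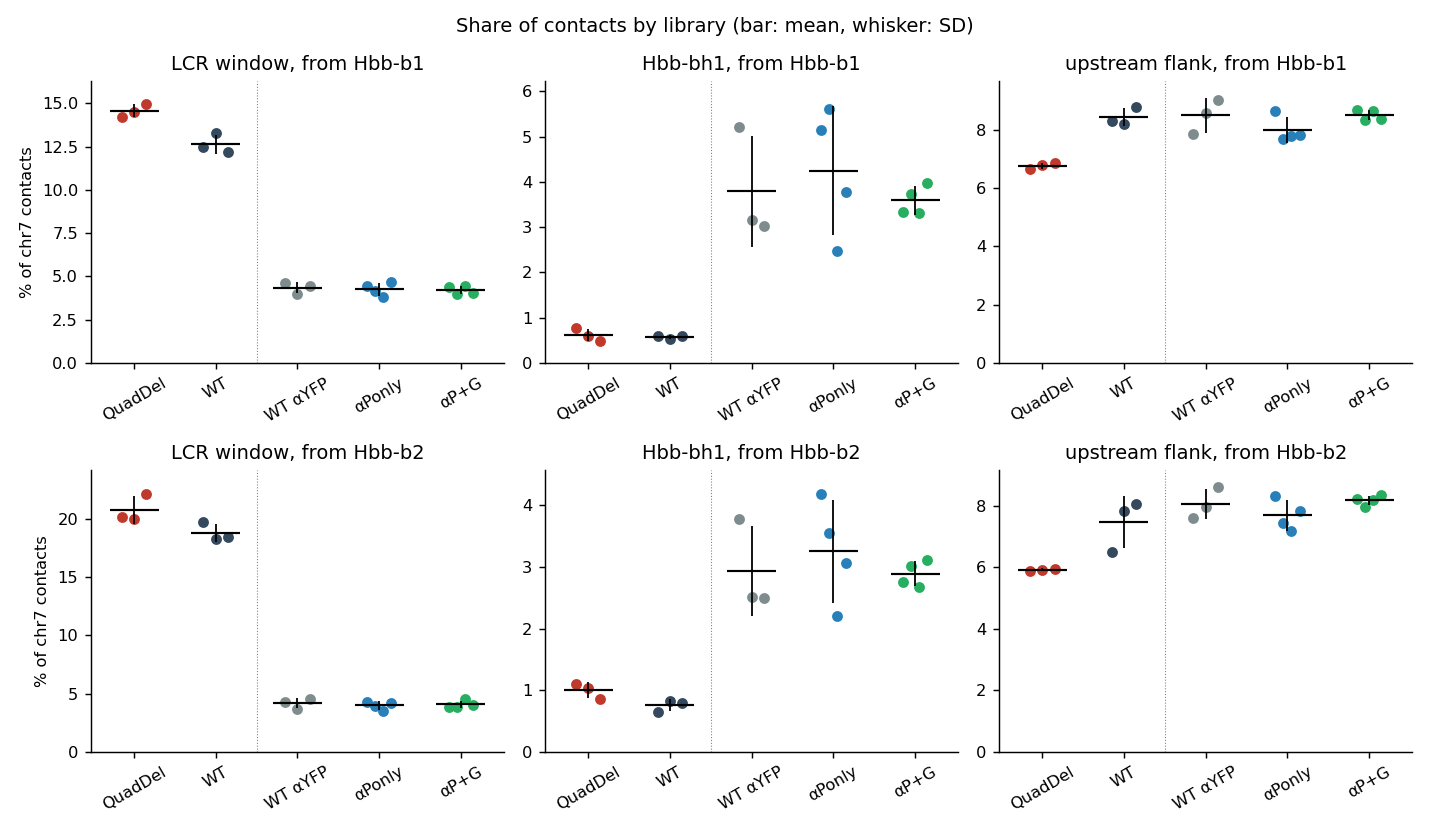
Share of chromosome 7 contacts (y axis, %) in each library (points) over the LCR window, Hbb-bh1 and the upstream flank, from Hbb-b1 (top) and Hbb-b2 (bottom), by group (x axis). Horizontal bars are means, whiskers are SD, the dotted line divides Ter119+ from CD71+ libraries, and both zones are left out. In CD71+ libraries the LCR points lie below 5% and the Hbb-bh1 points above 2%.

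The embryonic gene Hbb-bh1, which is transcribed in primitive erythroid cells, was the leading contact of both adult promoters in CD71+ cells. Its 4 fragments held 5207, 3154 and 3015 of 100,000 contacts from Hbb-b1 in the 3 WT αYFP libraries, against 591, 533 and 595 in WT Ter119+. The αPonly libraries held 5141, 5616, 2465 and 3786 and the αP+G libraries 3338, 3732, 3306 and 3987. All 11 CD71+ values were above 2000, all 6 Ter119+ values were below 1000, and the αPonly libraries spread most.

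From Hbb-b2 the same gene held 3787, 2518 and 2502 in WT αYFP, then 4186, 3547, 2209 and 3072 for αPonly, and 2762, 3016, 2675 and 3109 for αP+G. The Ter119+ means were 754 ± 94.3 in WT and 998 ± 129 in QuadDel (SD, n = 3). The lowest CD71+ library was αPonly replicate 3 from both viewpoints, which come from the same libraries and so are not independent. Between the CD71+ groups no difference passed an exact two-sided permutation test (p between 0.371 and 0.914), where 4 libraries against 3 cannot go below 0.0571 and 4 against 4 below 0.0286.

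These contacts were concentrated on a pair of adjoining fragments over the Hbb-bh1 gene. The fragment chr7:110990422-110991220 (mm9, 799 bp) held 2088 ± 1021 from Hbb-b1 and 1456 ± 558 from Hbb-b2 in WT αYFP, against 174 ± 12.3 and 217 ± 59.5 in WT (SD, n = 3). Its neighbour chr7:110991221-110991652 (mm9, 432 bp) held 1280 ± 247 and 1078 ± 132 in WT αYFP, against 128 ± 25.3 and 126 ± 26.7 in WT. The median fragment of the embryonic region held 128 from Hbb-b1 and 156 from Hbb-b2 in WT αYFP. The longest exact stretch that these fragments share with the adult gene region was 14 and 18 bp. These fragments were picked after their values were seen, so they carry no test.

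The other globin genes of the cluster differed less between the cell sets. Hbb-y, the ε-like embryonic gene nearest the LCR, held 865 ± 58.5 in WT and 933 ± 125 in QuadDel from Hbb-b1 (SD, n = 3), with means of 1333 to 1502 in the CD71+ groups. From Hbb-b2 its means lay in the same range, at 1210 and 1381 in the Ter119+ groups and 1169 to 1323 in the CD71+ groups. From Hbb-b1 and Hbb-b2, Hbb-bh2 held means of 262 and 402 in WT and 307 and 594 in QuadDel. Across the CD71+ groups its means were 693 to 934. The pseudogene Hbb-bh3, nearest to the adult genes, held 757 ± 179 and 1545 ± 264 in WT and 1571 ± 360 and 1987 ± 161 in WT αYFP (SD, n = 3). In QuadDel it held 1028 ± 156 and 1821 ± 145 (SD, n = 3). The pseudogene Hbb-bh0 held group means of 207 to 342.

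The first test asked whether the QuadDel edits, which remove 4 CTCF sites on chromosome 11, went with a difference at the β-globin locus. With the deposited zone, 9 of the 20 region sums (10 regions for each viewpoint, 45%) differed between QuadDel and WT by edgeR's quasi-likelihood test at an adjusted p under 0.05, 5 higher and 4 lower in QuadDel. The LCR window was higher from both promoters and the upstream flank lower. The regions divide the chromosome 7 total used for scaling, so a higher share in some goes with a lower share in others. The viewpoints were read in the same libraries, so their results are not independent. Leaving out WT replicate 2 reduced the count to 1 region, and leaving out QuadDel replicate 1 or QuadDel replicate 2 to 4.

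With the deposited zone, the LCR window held 10482, 10674 and 10859 of 100,000 contacts from Hbb-b1 across QuadDel and 8161, 9240 and 8728 across WT. The groups did not overlap, as in 13 of the 20 region sums (65%). The edgeR log2 fold change was 0.29 with an SE of 0.067 (adjusted p = 0.00182). An exact permutation test of 3 libraries against 3 cannot go below p = 0.1, so it could not pass here or for any other region or fragment. From Hbb-b2 QuadDel held 16215, 16142 and 17465 and WT 14840, 14197 and 14735, again without overlap, and edgeR gave 0.19 with an SE of 0.071 (adjusted p = 0.0359). With both zones left out these values were 0.20 (adjusted p = 0.00225) and 0.14 (adjusted p = 0.0392). From Hbb-b1 the difference passed the test in 14 of 14 alternatives, and from Hbb-b2 in 9 of 14, with adjusted p-values from 0.00844 to 0.117 and the call lost without any of the QuadDel replicates 1, 2 and 3 or without WT replicate 2.

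The upstream flank, on the far side of the LCR, fell in QuadDel from both viewpoints. Values are those with the deposited zone unless said otherwise. The upstream flank, with Olfr66, Olfr64, Olfr65 and Olfr631 to Olfr633, held 4899, 4988 and 4971 from Hbb-b1 in QuadDel and 5425, 5717 and 6275 in WT, a log2 fold change of -0.23 (edgeR adjusted p = 0.0118). From Hbb-b2 it held 4702, 4772 and 4694 in QuadDel and 4886, 6099 and 6424 in WT, a log2 fold change of -0.30 (edgeR adjusted p = 0.00682). The fall passed in 11 of 14 alternatives from Hbb-b1 and 13 of 14 from Hbb-b2. In each case the 3 QuadDel libraries lay within a narrow range below all WT libraries. The 1 Mb beyond it fell from Hbb-b2 (log2 fold change -0.30, edgeR adjusted p = 0.0194), and from Hbb-b1 the value was -0.06 (adjusted p = 0.604), which passed in 0 of 14 alternatives. The 1 Mb on the downstream side did not pass with the deposited zone from Hbb-b1 (-0.16, adjusted p = 0.0749) or Hbb-b2 (-0.15, adjusted p = 0.141), and it passed in 7 and 1 of 14 alternatives, including both zones left out (-0.25 and -0.20).

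The embryonic genes rose from both viewpoints with the deposited zone, by log2 fold changes of 0.22 from Hbb-b1 and 0.28 from Hbb-b2 (edgeR adjusted p = 0.0382 and 0.00952). With both zones left out the Hbb-b2 value was 0.24 (adjusted p = 0.00787) and the Hbb-b1 value 0.14 (adjusted p = 0.118), which did not pass and passed in only 4 of 14 alternatives. The stretch between adult and embryonic genes rose from Hbb-b1, where QuadDel held 2901, 2920 and 2916 and WT 2149, 2171 and 2759 (log2 fold change 0.29, edgeR adjusted p = 0.00952). The adult genes themselves turned direction with the zone, from -0.15 (adjusted p = 0.0402) to 0.06 (adjusted p = 0.356) for Hbb-b1 and from -0.05 to 0.20 (adjusted p = 0.0128) for Hbb-b2.

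The share of counts right at the viewpoint had a lower mean in QuadDel, which was not tested. Within 1000 bp of Hbb-b1 lay 42.2% ± 0.50 of chromosome 7 counts in QuadDel and 47.8% ± 3.50 in WT, without overlap. Within 1000 bp of Hbb-b2 lay 32.7% ± 1.48 and 36.1% ± 3.13 (SD, n = 3). There the groups overlapped, with WT replicate 3 at 32.9% and QuadDel replicate 3 at 34.4%. Whether this share contributes to the differences listed above was not tested beyond leaving it out.

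**Figure D3:**
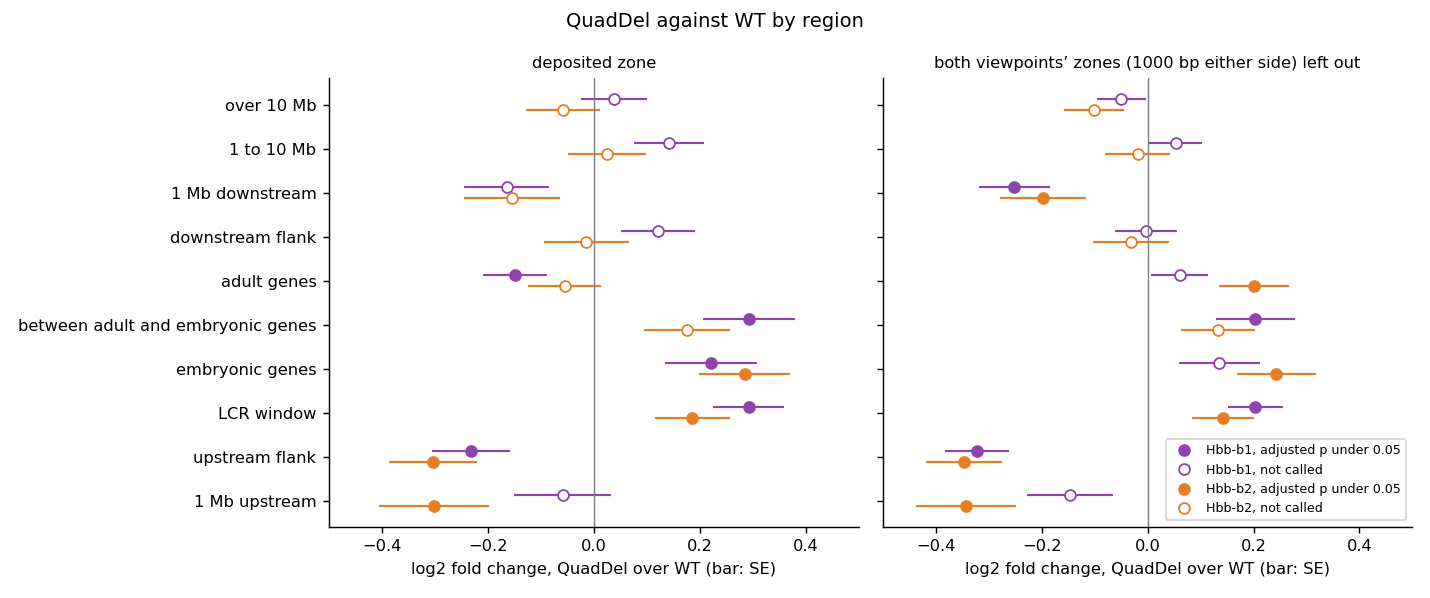
Log2 fold change of QuadDel over WT (x axis, bars SE) in 10 regions (y axis) from Hbb-b1 (purple) and Hbb-b2 (orange), with the deposited zone (left) and with both viewpoints' zones left out (right). Filled points passed an edgeR adjusted p of 0.05, and in both panels the LCR window lies right of 0 and the upstream flank left of it from both viewpoints.

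Single fragments were tested where their mean count reached 5, and 4 of 455 were called (0.879%): 3 of 258 from Hbb-b1 (1.16%) and 1 of 197 from Hbb-b2 (0.508%). Leaving out QuadDel replicate 3 or WT replicate 2 left 0 calls. The fragment chr7:111008142-111009073 (mm9, 932 bp) lies in the LCR window near the fragment printed above. From Hbb-b2 it held 840, 789 and 875 in QuadDel and 533, 543 and 531 in WT, a log2 fold change of 0.64 (edgeR adjusted p = 0.0309). The fragment chr7:110980512-110981160 (mm9, 649 bp), at the Hbb-bh3 pseudogene, held 219, 218 and 468 from Hbb-b1 in QuadDel and 137, 92.7 and 156 in WT, a log2 fold change of 1.16 (edgeR adjusted p = 0.00358). QuadDel replicate 3 was the high library there. The other calls were beside the Hbb-b1 viewpoint: chr7:110962863-110963073 (mm9) fell by 0.53 on the log2 scale, and chr7:110963274-110964281 (mm9) rose by 0.50, both with an edgeR adjusted p of 0.0231. The first held 10284, 10223 and 9923 of 100,000 contacts in QuadDel and 17022, 14640 and 12313 in WT, a large part of the total used for scaling. The second held 1875, 2090 and 1807 in QuadDel and 1320, 1205 and 1539 in WT. DESeq2 called 1 fragment, and 54 had an unadjusted edgeR p under 0.05.

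The printed LCR fragment with the 2 TGAGTCA matches did not pass. From Hbb-b1 it held 623, 604 and 698 in QuadDel and 529, 477 and 455 in WT with both zones left out, groups that did not overlap. Fitted with the deposited zone, its log2 fold change was 0.48 (edgeR adjusted p = 0.245). From Hbb-b2 QuadDel replicate 3 was highest at 1380 and WT replicate 2 reached 1137, so the groups overlapped, and the fit with the deposited zone gave 0.31 (edgeR adjusted p = 0.514). In the CD71+ groups the fragment held means of 141 to 165, where the median LCR fragment of WT αYFP held 84.8 from Hbb-b1 and 85.7 from Hbb-b2.

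Inserting the α-globin promoter, or promoter and gene, on chromosome 11 went with no called difference at the β-globin locus. In each of the 3 comparisons among WT αYFP, αPonly and αP+G, which share samples, edgeR called 0 of 20 regions (0%) and 0 of 716 fragments (0%), with 2, 0 and 1 regions and 49, 30 and 23 fragments at an unadjusted p under 0.05 for αP+G against WT αYFP, αPonly against WT αYFP and αP+G against αPonly. DESeq2 called 0 fragments in each, with 26, 15 and 11 at an unadjusted p under 0.05. The LCR window differed by log2 fold changes of -0.04 and -0.03 between αP+G and WT αYFP, of -0.03 and -0.06 between αPonly and WT αYFP, and of -0.02 and 0.03 between αP+G and αPonly, from Hbb-b1 and Hbb-b2. Their standard errors were 0.07 to 0.08.

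The stretch between the adult and embryonic genes came closest to a call. From Hbb-b1 it held 6395, 6761, 6669 and 6603 in αP+G and 5649, 6073, 6155 and 6270 in αPonly, so that all 4 αP+G libraries were above all 4 αPonly libraries (log2 fold change 0.13, edgeR adjusted p = 0.291). The exact permutation p was 0.0286, the smallest that 4 against 4 libraries can give. WT αYFP held 6219, 5842 and 6233, close to αPonly. Groups did not overlap in 1 of the 20 regions in that comparison (5%).

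No single fragment passed in CD71+ cells, and those with the smallest p lay in the flanks or farther out on chromosome 7. For αP+G against WT αYFP they were chr7:110951699-110952318 (mm9) from Hbb-b1, with a log2 fold change of 1.49 (edgeR adjusted p = 0.867), and chr7:110761804-110762351 (mm9) from Hbb-b2, with -2.11 (adjusted p = 0.552). For αPonly against WT αYFP they were chr7:111055037-111055166 (mm9), at Olfr65, with -1.17 (adjusted p = 0.992) and chr7:111381110-111381696 (mm9) with -1.93 (adjusted p = 0.830). For αP+G against αPonly they were chr7:111050244-111050544 (mm9) with 1.18 (adjusted p = 0.948) and chr7:109659602-109659739 (mm9) with 1.79 (adjusted p = 0.951).

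Both promoters were captured in every library, so they can be compared within it. The Hbb-b2 viewpoint lies 26299 bp from the LCR window and Hbb-b1 39938 bp. With both zones left out, a setting added after the data were seen, the Ter119+ LCR share was lower from Hbb-b1 in 6 of 6 libraries. The mean difference was 6.19 points (SD 0.91). The exact sign-flip p was 0.03125, the smallest that 6 libraries can give (adjusted over 10 regions, 0.0347). Every other region except the 1 Mb upstream gave the same p and adjusted p, in either direction, so passing was not particular to the LCR window. With the deposited zone, Hbb-b1 minus Hbb-b2 for the LCR window was -5.91 points ± 0.67. It missed the threshold after adjustment (0.0521), as did every other region. This contrast did not differ detectably between QuadDel and WT (-0.0545 points, exact permutation p = 1, smallest possible 0.1).

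In CD71+ cells the 2 promoters had nearly equal LCR shares. Hbb-b1 was higher in 9 of 11 libraries, by 0.217 points ± 0.20 (exact sign-flip p = 0.00684, adjusted 0.0114), but widening the zone by 5000 bp turned the sign to -0.0747 points (adjusted p = 0.301). With both zones left out, every region of the locus passed this test in CD71+ cells, and no region beyond the locus did. The embryonic genes took a larger share from Hbb-b1 in all 11 CD71+ libraries, by 1.08 points ± 0.64 (exact sign-flip p = 0.000977, adjusted 0.00244). In the 6 Ter119+ libraries they took a smaller share from Hbb-b1, a difference of -1.93 points on average. The downstream flank, which lies on the Hbb-b1 side, took more from Hbb-b1 in all 6 Ter119+ and all 11 CD71+ libraries, by 2.33 and 0.865 points.

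**Figure D4:**
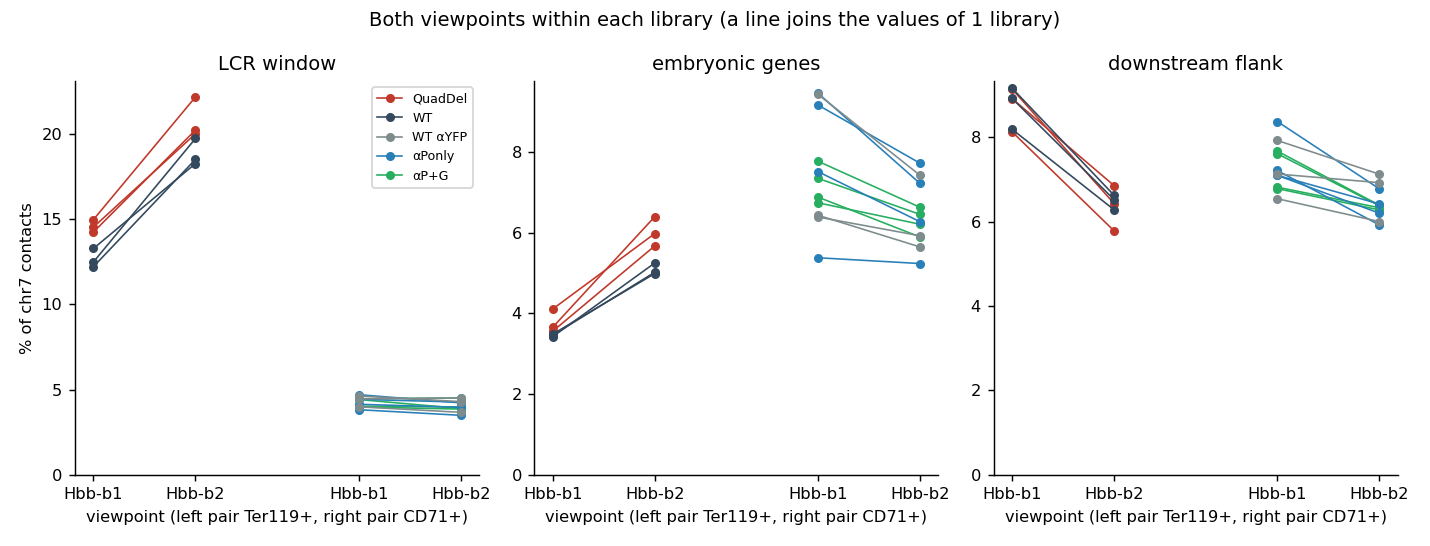
Share of chromosome 7 contacts (y axis, %) from Hbb-b1 and Hbb-b2 (x axis) in the LCR window, the embryonic genes and the downstream flank, with a line joining the 2 values of each library and both zones left out. Lines for the LCR window rise steeply towards Hbb-b2 in Ter119+ libraries (12.2% to 15.0% against 18.2% to 22.2%) and are nearly flat in CD71+ libraries.

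Across fragments of the locus the 2 profiles ran alike. Pearson's r between them was 0.814 in WT and 0.879 in QuadDel over 413 fragments, and 0.935 to 0.945 in the CD71+ groups over 377, a description in which fragments share library, depth and length.

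A run of fragments between the adult genes was nearly empty in CD71+ libraries. Of 217 locus fragments with at least 60 counts in the 6 Ter119+ libraries, 21 had at most 10 in the 11 CD71+ libraries, and 15 of these lay between chr7:110964839 and 110970616 (mm9, 5.78 kb). They held 3069 counts in Ter119+ libraries and 6 in CD71+ libraries, although the CD71+ libraries had 416589 counts on chromosome 7 outside both zones and the Ter119+ libraries 105103. The CD71+ cells derive from a stem cell line of 129 origin and the mice from a C57BL/6J background, and strain, cell type and capture cannot be told apart here. In the LCR window 2 of 49 fragments were of this kind. Without all 21, the LCR share was 15.0% in QuadDel and 4.22% to 4.35% in the CD71+ groups from Hbb-b1, close to the values with them.

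Away from the cluster, the CD71+ promoters had more of their contacts at middle distances. Between 100 kb and 1 Mb from Hbb-b1 lay 9.0% ± 0.36 of contacts in WT and 7.57% ± 0.34 in QuadDel (SD, n = 3), and 21.2% to 21.7% in the CD71+ groups. From Hbb-b2 these shares were 7.72% ± 0.37, 6.36% ± 0.38 and 20.5% to 21.3%. Between 10 and 50 kb, the distance at which the LCR lies from Hbb-b2, that viewpoint had 31.9% ± 0.69 in WT, 35.5% ± 1.70 in QuadDel and 17.5% to 17.7% in the CD71+ groups.

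**Figure D5:**
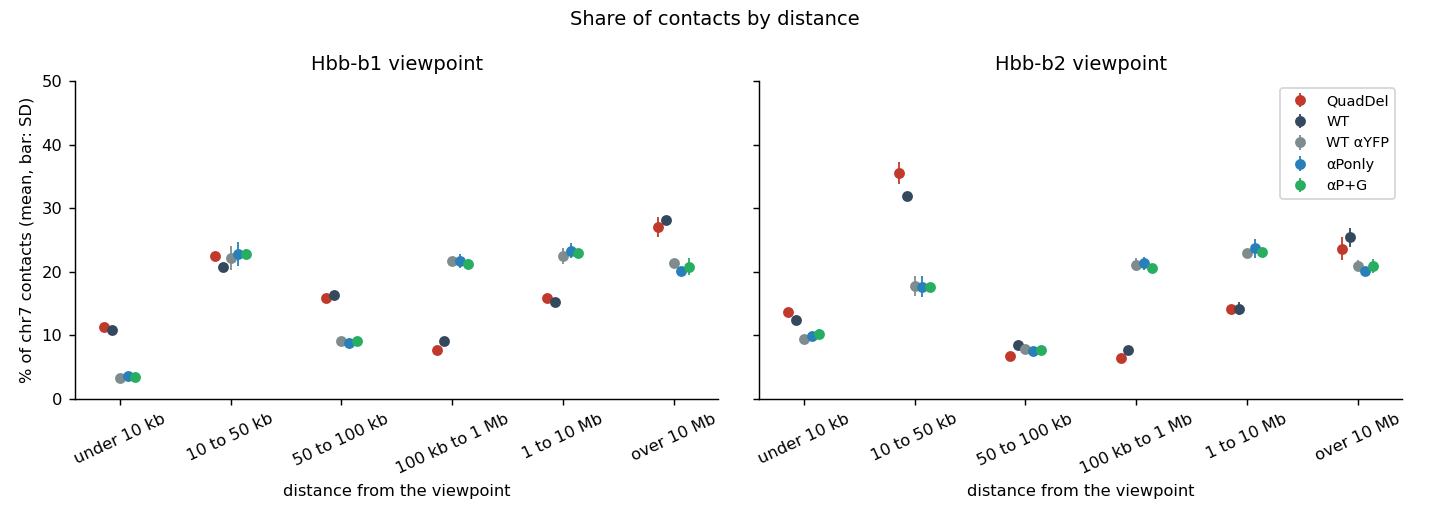
Share of chromosome 7 contacts (y axis, %, mean with SD bars) by distance from the viewpoint (x axis, 6 classes) for Hbb-b1 (left) and Hbb-b2 (right) in the 5 groups, with both zones left out. The CD71+ groups lie together in each class, above 20% between 100 kb and 1 Mb where WT and QuadDel lie at or below 9.0%.

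The likeness of Hbb-b1 to other viewpoints was measured as the summed difference of these 6 shares. In CD71+ libraries Hbb-b2 was nearest (14.1 points), followed by Slc25A37 (45.2 points), when each viewpoint's own zone was left out. In Ter119+ libraries the answer depended on the zone. With the own zone left out the nearest were the α-globin enhancer R1 (22.0 points) and the CTCF site viewpoint HS38 (27.6 points), whereas with both β-globin zones left out, a choice made after the first values were seen, they were HS38 (21.2 points) and HS39 (24.5 points). Hbb-b2 was at 28.4 and 28.3 points.

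Among 1 Mb bins that lay wholly more than 1 Mb from the locus, that of 107 to 108 Mb was highest in Ter119+ libraries, with 1545 ± 136 of 100,000 contacts from Hbb-b1 and 1494 ± 106 from Hbb-b2 (SD, n = 6). In CD71+ libraries the bin of 108 to 109 Mb was highest, with 1356 ± 160 and 1329 ± 182 (SD, n = 11). The bin of 97 to 98 Mb came second in Ter119+ libraries from both viewpoints, and the bin of 107 to 108 Mb in CD71+ libraries.

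Of the distal genes looked up, Stim1 (a calcium sensor) and Rrm1 (a subunit of ribonucleotide reductase) share the bin of 109 to 110 Mb, which reaches within 1 Mb of the locus and so was not ranked. It held 1931 ± 108 from Hbb-b1 and 1984 ± 209 from Hbb-b2 in Ter119+ libraries (SD, n = 6) and 9445 ± 431 and 9467 ± 412 in CD71+ libraries (SD, n = 11). The bin of Uros, an enzyme of haem synthesis, held 412 ± 84.6 and 348 ± 36.6 in Ter119+ libraries, within the range of its 10 nearest bins. The bin of Blvrb, a biliverdin reductase of red cells, held 100.3 ± 44.3 from Hbb-b1 in Ter119+ libraries, where the highest of its 10 nearest bins held 82.3. From Hbb-b2 it held 101.4 ± 43.5, level with its highest neighbour at 101.1, and in CD71+ libraries it held 76.9 and 70.5 from Hbb-b1 and Hbb-b2, below the highest neighbours at 92.8 and 114.3.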

How the data were processed

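The authors performed NG Capture-C, trimmed reads with Trim Galore, aligned them with Bowtie to mm9 and deposited raw counts of unique interactions per viewpoint and DpnII fragment for each of 17 libraries. The authors also deposited lists of viewpoint and exclusion zone positions. Rows of the combined viewpoint were left out.

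Counts on chromosome 7 outside the zone were summed over 10 regions by fragment midpoint, with the chromosome 7 total as library size, and tested with edgeR 4.0.16 (R 4.3.3, quasi-likelihood, Benjamini-Hochberg over 20 region sums, threshold 0.05). Single fragments needed a mean count of 5 or more and were tested within a viewpoint. DESeq2 1.42.0 (Wald test) was an alternative. Ter119+ and CD71+ libraries were fitted apart. Viewpoints were compared within libraries by exact sign-flip tests, and other values by exact two-sided permutation tests. Scripts were tested on simulated data.

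The named fragments are the called fragments of smallest p, at most 3, for a viewpoint and comparison, or the 1 with the smallest p where none was called. Genes are the β-like globins, the olfactory receptor genes of the flanks and Stim1, Rrm1, Uros and Blvrb on the distal chromosome. Ahsp and Kcnq1ot1 were not analysed here. The leading fragments of the LCR window and Hbb-bh1 were chosen after their values were seen. The members, regions and lists were chosen with earlier results of these data known. Alternatives were TMM and DESeq2 size factors, other zones and minimum counts, scaling to chromosome 7 outside the locus, the replicate number as a block and leaving out each replicate. The setting that leaves out both viewpoints' zones was added after seeing the data. It was used for levels outside the group tests and in the comparison of viewpoints within libraries. Replicates differed by more than sampling noise (chi-square per degree of freedom 1.38 to 2.24), and p-values measure the spread between libraries. Python 3.11.15 with pandas 2.3.3, numpy 2.4.6 and scipy 1.17.1 was used.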

Additional observations from a re-analysis of the deposited data

Results flagged for a closer look

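In αPonly, replicate 1 lay apart from the other libraries in the downstream flank from Hbb-b1 (8323 of 100,000 contacts, the next at 7172) and in the upstream flank (8601, the next at 7773). These were the only values flagged in 40 such tests of a lone library, about the share of 1 in 20 that chance gives. Both come from 1 library and 1 viewpoint, so they are not independent.

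The viewpoints also had counts within the α-globin domain on chromosome 11, which none of the comparisons use. In Ter119+ libraries there were 32 from Hbb-b1 and 20 from Hbb-b2, and in CD71+ libraries 10 and 17. These were 0.0771%, 0.0584%, 0.0105% and 0.0118% of the counts outside chromosome 7, where the domain's share of that length is 0.00663%. QuadDel replicate 2 held 10 of the 20 from Hbb-b2, and without it the share was 0.0351%. WT αYFP replicate 1 held 4 of the 10 CD71+ counts from Hbb-b1, and without it the share was 0.00676%. Of the Ter119+ counts, 10 and 5 lay within 1000 bp of an α-globin viewpoint, fragments that were captured in the same libraries, and 0 of the CD71+ counts did.

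The share of the embryonic genes, Hbb-b1 minus Hbb-b2, was negative in all 6 Ter119+ libraries (-1.81 points, or -1.93 with both zones left out) and positive in all 11 CD71+ libraries (1.04 points, or 1.08). For the adult genes with both zones left out it was 2.65 points in Ter119+ and -0.323 points in CD71+ libraries, but with the deposited zone it was positive in both (8.85 and 0.205 points), so the signs differ only with both zones left out. The differences between the 2 captures were not tested.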

How the results depend on the processing

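The LCR window stayed higher in QuadDel than in WT under all 14 alternatives from both viewpoints. Leaving out 1 library in turn gave log2 fold changes of 0.25 to 0.34 from Hbb-b1 and 0.15 to 0.21 from Hbb-b2, and with DESeq2 size factors the Hbb-b2 value was 0.17 (edgeR adjusted p = 0.0517). Regions called numbered 1 to 10 when 1 library was left out. Fragments called numbered 2 with TMM factors, DESeq2 size factors, the zone widened by 5000 bp, 1000 bp added to the zone or both zones left out, 1 with DESeq2, 7 with a mean count of at least 20, and 0 to 4 when 1 library was left out. The causes were not tested.

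Deviations of same-numbered libraries were correlated across fragments. For WT αYFP and αPonly, r was -0.191 to 0.157 for equal numbers and -0.263 to 0.319 for different numbers. For QuadDel and WT it was -0.033 to -0.0015 and -0.019 to 0.049. With so few pairs, this check cannot tell whether same-numbered libraries were prepared together. With the replicate number as a block, 7 regions and 5 fragments were called between QuadDel and WT and none in CD71+ cells, where 42, 27 and 18 fragments had an unadjusted edgeR p under 0.05.

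Among regions that passed no test in QuadDel, or changed with the zone, the sign turned as follows. From Hbb-b1, the downstream flank was -0.032 with the zone widened and -0.0030 with both zones left out, and the adult genes 0.060 with both left out. Beyond 10 Mb it was -0.013 with DESeq2 size factors, -0.026 with the zone widened or 1000 bp added, -0.050 with both left out and -0.0071 when scaled outside the locus. With 1 library left out, it ranged from -0.014 to 0.082 beyond 10 Mb and from -0.14 to 0.053 in the 1 Mb upstream. From Hbb-b2, the downstream flank was 0.0076 with the zone widened and 0.045 when scaled outside the locus (-0.046 to 0.036 with 1 library left out). The adult genes were 0.20 with both zones left out and 0.0029 when scaled outside the locus (-0.11 to 0.0064), and 1 to 10 Mb was -0.018 with both left out (-0.046 to 0.088). Beyond 10 Mb leaving out 1 library gave -0.12 to 0.0022.

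In CD71+ cells the LCR values lay near 0 and changed sign freely. With 1 library left out they ranged from -0.10 to -0.0010 (Hbb-b1) and -0.12 to 0.036 (Hbb-b2) for αP+G against WT αYFP, from -0.086 to 0.033 and -0.15 to 0.0054 for αPonly against WT αYFP, and from -0.074 to 0.034 and -0.034 to 0.066 for αP+G against αPonly. TMM factors gave 0.00087 for αPonly against WT αYFP from Hbb-b1. Within libraries, the Ter119+ LCR share of Hbb-b1 minus Hbb-b2 was -5.37 points with the zone widened, -6.19 with both left out and -9.02 as a share of the locus, with -6.10 to -5.75 when 1 library was left out, where the design cannot pass. In CD71+ it was -0.0747 with the zone widened, 0.322 as a share of the locus (adjusted p = 0.0820) and 0.162 to 0.222 with 1 library left out.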
